A study of Homo sapiens with 6 samples.

Results

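The S100 genes analysed here were S100A2, S100A4, S100A6, S100A9, S100A10, S100A11, S100A13, S100A14, S100A16 and S100P, picked by name from the family of S100 calcium-binding proteins. All 10 were found among the 23524 genes of the deposited table, and all 10 passed the filter on low values, which asked for 0.1 FPKM or more on average over the libraries. FPKM counts the fragments per kilobase of transcript, scaled to library size, so levels of different genes can be compared. The cells were Hep G2, a cell line from a human liver tumor. One group was labeled control and the other overexpressed EFTUD2, a GTPase of the spliceosome. For its stable Hep G2 cells the paper names an EFTUD2 lentivirus and a vector lentivirus. Whether the sequenced controls carried that vector is not stated. Each group had 3 libraries, and the study's methods describe puromycin selection for cells with the overexpression vector without saying so of the sequenced controls. The sources used here do not say whether each stable line was a pool or a clone, nor whether the 3 libraries of a group came from separate cultures, so p-values measure only the spread between these libraries.

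S100 proteins are small proteins with paired EF-hand loops that bind calcium and, on doing so, expose a surface for other proteins. They have no enzyme activity of their own and act through partners, inside the cell on the cytoskeleton and membranes and, for several members, outside the cell as signals to receptors. In liver tumors and other carcinomas, single members are widely used as markers of migration, of epithelial type or of inflammation. Members differ widely in the tissues that make them, so the family has no common level.

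EFTUD2 itself averaged 47.3 ± 6.65 FPKM over the controls and 106.3 ± 3.30 FPKM over the EFTUD2 libraries (SD, n = 3 each), and its groups did not overlap. The FPKM sums per library lay between 404342 and 434542, and no number of reads can be read from them. Of the hepatocyte markers, all 18 were present, with summed FPKM of 12289 to 18699 in the controls and 16511 to 23680 in the EFTUD2 libraries. EFTUD2 replicate 3 stood apart from the others. Its log2 values differed from those of EFTUD2 replicates 1 and 2 with an SD over genes of 0.51 and 0.60, against 0.23 between replicates 1 and 2. Results for S100 genes that rest on this library are given with and without it. It was singled out by these same values, so p-values from limma without it are a description and no independent support.

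The members lie mostly in one gene cluster. By RefSeq (GRCh38.p14, the same assembly as the hg38 named in the submitters' processing notes), 9 of the 10 lie on chromosome 1 between 151982915 and 153634361. Of these, 8 are on the minus strand and S100A9 is on the plus strand. S100P is alone on chromosome 4, from 6693878 to 6697170. In GENCODE release 29 the coding part of the members runs from 90 codons for S100A6 to 114 for S100A9, and most have 3 exons. The coding sequences are far from identical. Over 45 pairs of members the median identity was 51.6%, and the closest pair was S100A2 with S100A4 at 69.0%. Some neighbors overlap on the genome, however. S100A13 spans the whole of S100A1, 3606 bases on the opposite strand, and S100A4 shares 65 bases with S100A5 on the same strand. Whether fragments were counted by strand is not given in the sources used here, so values of S100A13 and S100A1 may share reads.

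The sequence before the start of 4 members is shown because their levels were the furthest from the controls or because they carry a motif that few promoters hold. Each line gives the 250 bases before the first transcript start listed by RefSeq (GRCh38.p14), read on the strand of the gene. Capitals mark TATAAA, the core of the TATA box, TGACTCA, the site of AP-1 factors, and GGGCGG, the GC box of SP1, all searched on both strands. The windows lie at chr1:153545807-153546056 (minus strand) for S100A4, at chr1:153357604-153357853 (plus strand) for S100A9, at chr4:6693628-6693877 (plus strand) for S100P and at chr1:153565845-153566094 (minus strand) for S100A2.
S100A4: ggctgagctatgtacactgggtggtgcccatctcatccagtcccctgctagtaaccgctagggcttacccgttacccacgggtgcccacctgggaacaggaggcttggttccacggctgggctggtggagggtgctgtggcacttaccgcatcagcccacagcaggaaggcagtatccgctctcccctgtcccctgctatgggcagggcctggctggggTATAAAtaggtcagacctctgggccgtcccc
S100A9: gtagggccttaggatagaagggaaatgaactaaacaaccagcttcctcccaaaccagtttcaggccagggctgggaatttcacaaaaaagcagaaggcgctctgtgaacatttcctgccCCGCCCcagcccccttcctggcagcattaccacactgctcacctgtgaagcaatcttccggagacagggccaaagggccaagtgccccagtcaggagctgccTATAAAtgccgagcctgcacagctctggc
S100P: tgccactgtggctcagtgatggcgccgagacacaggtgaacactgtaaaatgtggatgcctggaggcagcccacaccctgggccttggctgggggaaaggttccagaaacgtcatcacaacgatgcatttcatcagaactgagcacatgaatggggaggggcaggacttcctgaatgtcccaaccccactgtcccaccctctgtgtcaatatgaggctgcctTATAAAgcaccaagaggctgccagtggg
S100A2: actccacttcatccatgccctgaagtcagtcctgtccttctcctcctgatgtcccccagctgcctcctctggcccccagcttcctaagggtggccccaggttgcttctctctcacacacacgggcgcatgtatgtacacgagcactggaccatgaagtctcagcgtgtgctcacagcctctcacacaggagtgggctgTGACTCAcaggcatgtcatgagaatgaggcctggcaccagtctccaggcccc

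TATAAA was found in 3 of the 10 members, S100A4, S100A9 and S100P, ending 26, 24 and 23 bases before the start. Of 27305 promoter windows of the same length, 11.1% hold it. These 3 genes also had the highest log2 fold changes of the 10 with all libraries, which is a description, since the motifs were chosen with the levels known. It rests on single libraries, since without EFTUD2 replicate 2 S100A4 (0.32) fell below S100A14 (0.38), where TATAAA was not found. TGACTCA was found in S100A2 alone, and 4.16% of all windows hold it. GGGCGG was found in 5 members, S100A6, S100A9, S100A10, S100A11 and S100A13, and in 42.3% of all windows. The pattern TTCNNNGAA, bound by STAT factors, was found in 0 of the 10 windows and in 6.78% of all windows. S100A2, S100A13 and S100A16 have further starts whose windows were not searched, and a match of letters does not show that a factor binds there.

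In control cells, the members covered a wide range of levels. S100P was the most abundant, at 181.4 ± 15.5 FPKM (SD, n = 3), and its 3 libraries lay above those of every other member. S100A6 (130.2 ± 16.9 FPKM), S100A11 (99.9 ± 38.8 FPKM), S100A10 (81.2 ± 10.1 FPKM) and S100A16 (74.1 ± 4.26 FPKM) followed, and each overlapped its neighbor in this order. S100A13 (44.6 ± 5.16 FPKM), S100A4 (25.8 ± 4.92 FPKM), S100A14 (8.75 ± 2.38 FPKM), S100A2 (3.90 ± 0.45 FPKM) and S100A9 (0.21 ± 0.06 FPKM) came next without overlap. By the means of the EFTUD2 libraries, S100A4 ranked 5 instead of 7, and S100A9 stood above S100A2.

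**Figure D1:**
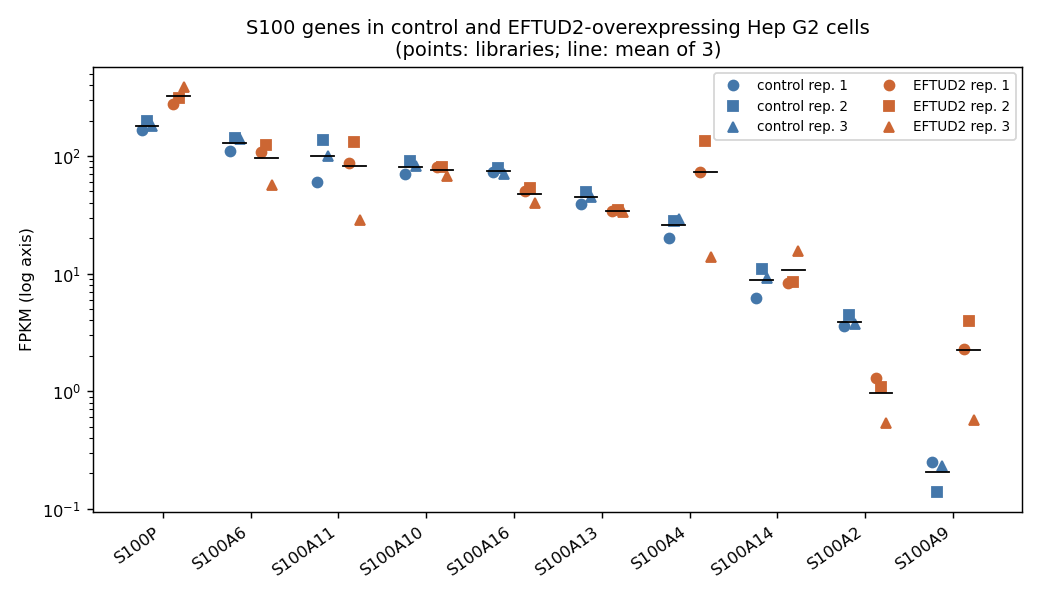
FPKM of the 10 S100 genes on a log axis, ordered by the control mean, with the 3 control libraries in blue, the 3 EFTUD2 libraries in orange and the group means as lines. S100P and S100A9 sit higher and S100A2, S100A13 and S100A16 lower in every EFTUD2 library, while EFTUD2 replicate 3 (triangles) lies far below replicates 1 and 2 for S100A4, S100A6 and S100A11.

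The question of the comparison was which transcripts differ in Hep G2 cells once EFTUD2 is overexpressed. Values were compared as log2(FPKM + 1) with limma over 17222 genes, and an adjusted p under 0.05 was called. None of the 10 members was called, as 0% of all genes tested were, and the smallest adjusted p of a member was 0.21 for S100A2. EFTUD2, the overexpressed gene, was not called either (log2 fold change 1.16, SE 0.12, limma adjusted p = 0.13). The paper, in its own analysis, reports genes with significant differential expression between these groups. At an unadjusted p under 0.05 there were 2 members higher in EFTUD2-overexpressing cells (S100A9 and S100P), where 4.40% of all genes tested were, and 3 lower (S100A2, S100A13 and S100A16), where 7.90% were. Over all genes with such a p, 35.7% were higher with the values as deposited and 57.0% after scaling by the median of ratios, while the direction of these 5 members was the same under both. For the same 5 members the 2 groups did not overlap. That is 2 higher beside 7.92% of all genes tested, 3 lower beside 19.4%, and 5 of 10 in either direction beside 27.3%. The median log2 fold change of the members was -0.23, and that of all genes tested was -0.075. With 3 libraries a group, 0.1 is the smallest p that an exact permutation test (two-sided) of a single gene can reach, and each of these 5 had it.

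S100P, which acts on the cytoskeletal linker ezrin and is also secreted as a ligand of the receptor RAGE, was higher in each EFTUD2-overexpressing library. It measured 166.7, 197.7 and 179.8 FPKM across the control libraries against 275.1, 313.2 and 388.0 FPKM across EFTUD2 replicates 1 to 3. The lowest EFTUD2 library was thus well above the highest control, and EFTUD2 replicate 3 was the highest of all. The ratio of the means was 1.79 and the log2 fold change 0.83 (SE 0.15, limma adjusted p = 0.27). With any 1 library omitted, S100P kept a log2 fold change of 0.69 to 0.94.

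S100A9, a calcium-binding protein of neutrophils and monocytes that pairs with S100A8 to form calprotectin, was close to 0 in the controls. The control libraries measured 0.25, 0.14 and 0.23 FPKM against 2.27, 3.94 and 0.57 FPKM across EFTUD2 replicates 1 to 3. All 3 EFTUD2 libraries were higher, but replicate 3 was far nearer to the controls than the other 2. The ratio of the means was 10.9. Its log2 fold change was 1.28 (SE 0.38, limma adjusted p = 0.40), on a scale that understates the change of low genes, and it was 2.62 with a pseudocount of 0.1. Without EFTUD2 replicate 3 it was 1.74, with a limma adjusted p of 0.026. Its partner S100A8 was listed at 0.07 FPKM in control replicate 1 and at 0 in the other 5 libraries.

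S100A4, a binder of non-muscle myosin heavy chain long linked to motility and used as a fibroblast marker, had the widest spread of the 10 genes among the EFTUD2 libraries. It measured 20.2, 28.2 and 29.2 FPKM across the control libraries against 73.3, 133.8 and 13.7 FPKM across EFTUD2 replicates 1 to 3. EFTUD2 replicates 1 and 2 were thus 2.84 and 5.18 times the control mean, while replicate 3, at 0.53 times, was below every control. The highest EFTUD2 library was 9.74 times the lowest, against 1.44 among the controls. The log2 fold change over all libraries was 1.0 (SE 0.75, limma adjusted p = 0.53). It was 1.92 without EFTUD2 replicate 3 (limma adjusted p = 0.048) and 0.32 without EFTUD2 replicate 2, so the size of the difference rests on which libraries are included.

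Of the 3 members that were lower, S100A2 had the lowest level. S100A2, a p53-binding member found mainly in basal and squamous epithelia, measured 3.57, 4.41 and 3.71 FPKM across the control libraries against 1.29, 1.08 and 0.54 FPKM across EFTUD2 replicates 1 to 3. No EFTUD2 library reached the lowest control, and the ratio of the means was 0.25. Its log2 fold change was -1.33 (SE 0.18, limma adjusted p = 0.21), the largest in size of the 10 at a pseudocount of 1. At a pseudocount of 0.1 it was -1.97, smaller in size than the 2.62 of S100A9, and S100A4 (1.92) and S100A9 (1.74) were also larger in size without EFTUD2 replicate 3. The log2 fold change of S100A2 was -1.16 without EFTUD2 replicate 3, with a limma adjusted p of 0.026, and stayed between -1.45 and -1.16 over the fits that each left out 1 library.

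S100A16, a broadly expressed member, measured 73.3, 78.7 and 70.3 FPKM across the control libraries against 50.2, 53.2 and 39.7 FPKM across EFTUD2 replicates 1 to 3. The groups did not overlap, and the spread within each was small. The log2 fold change was -0.63 (SE 0.13, limma adjusted p = 0.32). S100A13, which helps export FGF1 and IL1A from cells without a signal peptide, differed less, with 39.4, 49.7 and 44.8 FPKM across the control libraries against 34.1, 34.9 and 33.3 FPKM across EFTUD2 replicates 1 to 3. Its EFTUD2 libraries lay close together, with an SD of 0.80 FPKM, and its log2 fold change was -0.37 (SE 0.11, limma adjusted p = 0.40). S100A3, a cysteine-rich relative next to S100A2 that is no member of the list, was also lower in all 3 EFTUD2 libraries. It measured 6.45, 11.7 and 9.89 FPKM across the control libraries against 6.13, 5.51 and 3.08 FPKM across EFTUD2 replicates 1 to 3 (log2 fold change -0.82, SE 0.28, limma adjusted p = 0.40).

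The remaining 4 members overlapped between the groups. S100A6 (calcyclin), a cytosolic member that binds annexins and the calcyclin-binding protein, measured 110.8, 141.4 and 138.5 FPKM across the control libraries against 107.7, 125.1 and 56.7 FPKM across EFTUD2 replicates 1 to 3. S100A11, a partner of annexin A1, measured 60.7, 138.3 and 100.7 FPKM across the control libraries against 87.8, 131.7 and 28.8 FPKM across EFTUD2 replicates 1 to 3. In both genes EFTUD2 replicate 3 was the lowest library, and replicates 1 and 2 lay at or near the controls. The log2 fold change of S100A6 was -0.50 (SE 0.29, limma adjusted p = 0.45) and -0.16 without EFTUD2 replicate 3. That of S100A11 was -0.44 (SE 0.57, limma adjusted p = 0.71), and its sign turned to 0.18 without EFTUD2 replicate 3. S100A11 also varied 2.28-fold among the controls.

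S100A10 (p11), which unlike most of its relatives does not bind calcium and forms a tetramer with annexin A2 at the membrane, measured 70.3, 90.4 and 82.9 FPKM across the control libraries against 81.2, 80.0 and 68.0 FPKM across EFTUD2 replicates 1 to 3. Its log2 fold change was -0.08 (SE 0.13, limma adjusted p = 0.76), smaller than the spread between libraries. S100A14, an epithelial member, measured 6.20, 10.9 and 9.14 FPKM across the control libraries against 8.38, 8.55 and 15.5 FPKM across EFTUD2 replicates 1 to 3. Here replicate 3 was the highest library and the other 2 lay among the controls. The log2 fold change of S100A14 was 0.25 (SE 0.28, limma adjusted p = 0.66), and -0.013 without EFTUD2 replicate 3.

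**Figure D2:**
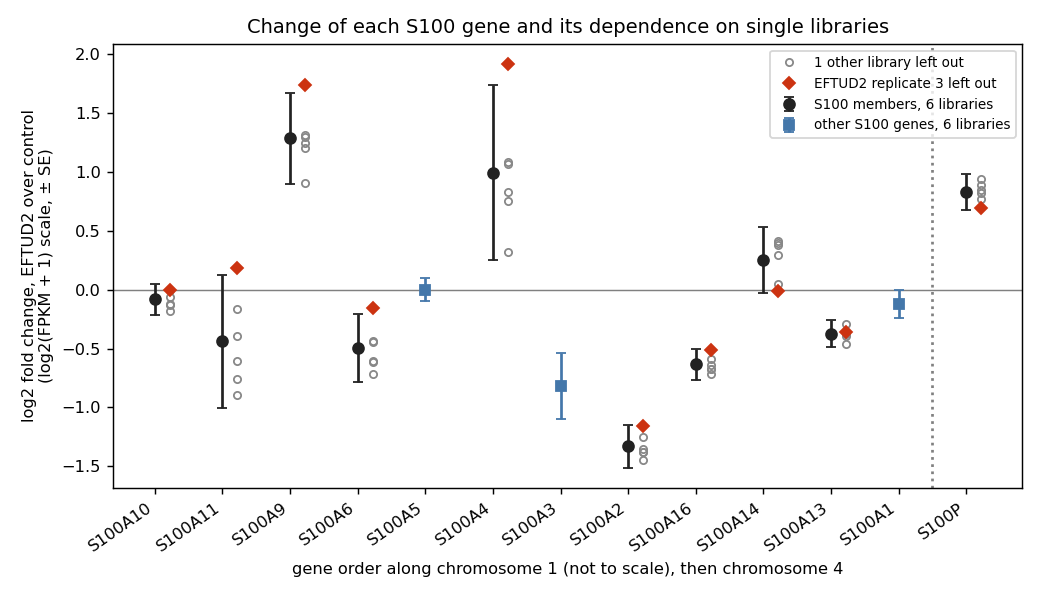
Log2 fold change (EFTUD2 over control, log2(FPKM + 1) scale, bars ± standard error) of the S100 genes tested, in the order of the genes along chromosome 1 and then S100P of chromosome 4, with open circles and red diamonds for fits without 1 library. S100A4 moves from 1.0 to 1.92 and S100A11 from -0.44 to 0.18 when EFTUD2 replicate 3 is left out. Every member but S100A11 and S100A14 keeps its sign in all 6 such fits.

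Neighbors in the cluster thus lay on both sides of 0. Along chromosome 1, S100A9 had a log2 fold change of 1.28, S100A6 of -0.50, S100A4 of 1.0, S100A3 of -0.82 and S100A2 of -1.33. S100A4 and S100A3 are separated by 1522 bases only. S100A16, S100A14 and S100A13, which follow within a short stretch, had -0.63, 0.25 and -0.37. On the far side of the cluster, S100A10 and S100A11 had -0.08 and -0.44.

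The summed level of the 10 genes overlapped between the groups, with 551.4, 739.8 and 659.2 FPKM across the control libraries against 721.3, 885.4 and 644.8 FPKM across EFTUD2 replicates 1 to 3, but its make-up differed by library. S100P made up 30.2%, 26.7% and 27.3% of the sum in the controls, and 38.1%, 35.4% and 60.2% in the EFTUD2 replicates. S100A4 made up 3.66% to 4.42% in the controls and 10.2%, 15.1% and 2.13% in EFTUD2 replicates 1 to 3. The share of S100A6 was 19.1% to 21.0% in the controls and 14.9%, 14.1% and 8.80% in the EFTUD2 replicates. Among the 10, S100P led in all 6 libraries, and S100A4 came second in EFTUD2 replicate 2 alone.

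**Figure D3:**
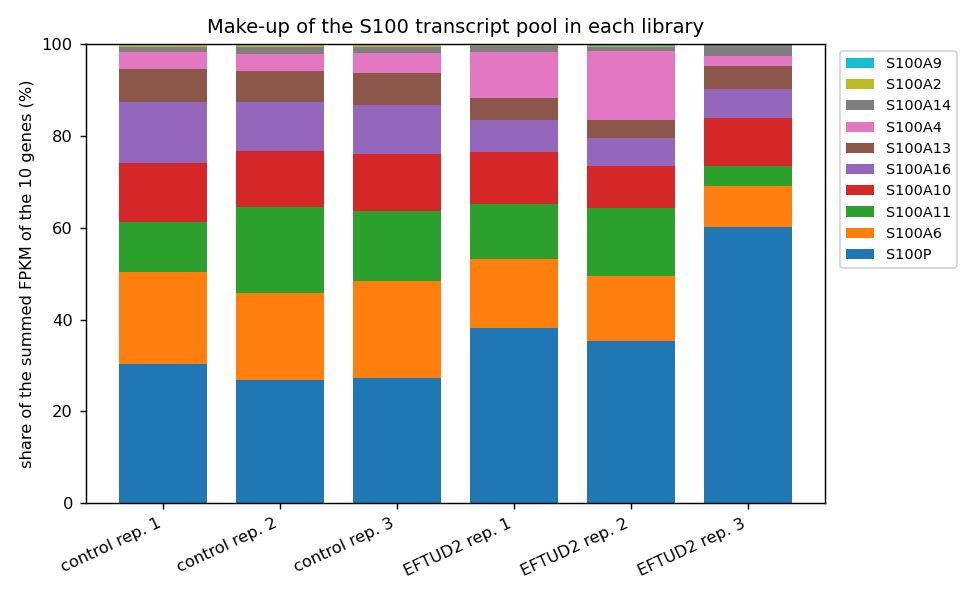
Share of each gene in the summed FPKM of the 10 S100 genes (percent, stacked bars) in each of the 6 libraries. S100P (bottom) takes 26.7% to 30.2% in the controls and 60.2% in EFTUD2 replicate 3, and S100A4 (pink) takes 10.2% and 15.1% in EFTUD2 replicates 1 and 2 and is 2.13% in replicate 3.

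The pattern of S100A4 and S100A9 over the EFTUD2 libraries was unlike that of EFTUD2. EFTUD2 exceeded its control mean by 59.3, 55.6 and 62.2 FPKM in replicates 1 to 3, so that replicate 3 had 1.12 times the excess of replicate 2. For S100A9 the excess in replicate 1 was 0.55 times, and that in replicate 3 0.097 times, the excess in replicate 2. For S100A4 the excess in replicate 1 was 0.44 times that in replicate 2, and replicate 3 had none. S100P had neither pattern, with an excess of 93.7, 131.8 and 206.5 FPKM that was largest in replicate 3.

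Some markers of other cell types stood in the same order of libraries as S100A4 and S100A9. Keratin 17, at 1.12 to 1.80 FPKM in the controls, reached 66.9, 135.1 and 9.29 FPKM in EFTUD2 replicates 1 to 3, with an excess in replicates 1 and 3 of 0.49 and 0.059 times that in replicate 2. Vimentin, chosen after its values were seen, had 0.39 and 0.047 times. The 14 basal and squamous markers summed to 40.0 to 57.5 FPKM in the controls and to 118.7, 205.6 and 44.7 FPKM in the EFTUD2 replicates. Of the 7 tested, 2 were higher without overlap (KRT17 and KRT14), where 7.92% of all genes tested were, and 1 was lower (KRT15), where 19.4% were. KRT14 and KRT16, at 0.02 FPKM or less in the controls, passed the filter on low values only through the EFTUD2 libraries, so these counts support nothing. Among those tested, KRT14, KRT16 and SFN stood in the order of KRT17 over the EFTUD2 libraries. KRT15, DSC3 and ITGB4 did not. SFN measured 33.5 to 50.1 FPKM in the controls and 44.3, 62.1 and 29.9 FPKM in EFTUD2 replicates 1 to 3, with overlap. KRT15 was lowest in replicate 2 among the EFTUD2 libraries, and DSC3 and ITGB4 were highest in replicate 1. KRT5 and PKP1 were listed at 0 in all libraries. The 8 ductal markers summed to 692.1 to 1032 FPKM in the controls and to 1530, 1595 and 820.8 FPKM in the EFTUD2 replicates, mostly SPP1 and KRT19. Within this list KRT7 measured 0.61 to 1.34 FPKM in the controls and 24.7, 61.2 and 0.78 FPKM in the EFTUD2 replicates, and MUC1 0.03 to 0.09 FPKM and then 0.75, 2.58 and 0.16 FPKM, both with replicate 2 highest and replicate 3 lowest of the EFTUD2 libraries, as for S100A4. KRT23 and SOX9 ran the other way over the EFTUD2 libraries, with replicate 2 lowest and replicate 3 highest. SOX9 measured 67.5, 59.2 and 81.7 FPKM in EFTUD2 replicates 1 to 3. EPCAM was also lowest in replicate 2 among them. CFTR was at 0 in all libraries. The genes of these lists other than KRT17, SPP1 and KRT19 were chosen after their values were seen. The part of such cells in the S100 results was not tested, and in bulk RNA fewer cells of a type and less RNA per cell cannot be told apart.

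S100A9 and S100A4 are also products of leukocytes and fibroblasts. The 13 macrophage and neutrophil markers in the table summed to 780.7 to 2288 FPKM in the controls and 891.7 to 1760 FPKM in the EFTUD2 libraries, mostly lysozyme (LYZ), with CD68 next. TYROBP was listed at 0 in all 6 libraries, and PTPRC reached at most 0.02 FPKM, MPO 0.01 FPKM and ELANE 0.03 FPKM. Other genes of the list were present. CD14 was higher in every EFTUD2 library, with 0.60 to 1.03 FPKM in the controls and 1.41, 2.06 and 2.51 FPKM in EFTUD2 replicates 1 to 3. CSF3R measured 2.55 to 5.17 FPKM in the controls and 4.46 to 8.52 FPKM in the EFTUD2 libraries, and FCER1G 0.98 to 2.57 FPKM and 1.75 to 2.01 FPKM. None of these 3 had its highest level in EFTUD2 replicate 2, where S100A9 was highest. CD68 did, with 16.7 to 30.9 FPKM in the controls and 26.1, 33.4 and 24.0 FPKM in EFTUD2 replicates 1 to 3. LYZ was lowest in replicate 2 among the EFTUD2 libraries, at 849.4 FPKM. The 15 fibroblast and mesenchymal markers summed to 709.1 to 1106 FPKM in the controls and 724.1 to 1282 FPKM in the EFTUD2 libraries, mostly FN1, with SPARC next. All 8 tested had a log2 fold change above 0, where 6421 of the 17222 genes tested did. SPARC (0.02), FN1 (0.05) and PDGFRB (0.21) had the lowest, and their groups overlapped. VIM, COL1A1, COL3A1, COL5A1 and LUM stood in the same order over the EFTUD2 libraries as S100A4 and S100A9. COL5A1, for one, measured 0.01 FPKM in each control and 1.07, 3.18 and 0.11 FPKM in EFTUD2 replicates 1 to 3. FN1, SPARC and PDGFRB stood in the reverse order, with replicate 3 highest and replicate 2 lowest of the EFTUD2 libraries. FN1 measured 858.8, 627.3 and 1232 FPKM in EFTUD2 replicates 1 to 3. VIM, COL3A1, COL5A1 and LUM were below 0.1 FPKM on average in the controls and passed the filter only through the EFTUD2 libraries, so the count of 8 supports nothing. COL1A2 was at 0 in all libraries. The genes named from the leukocyte and fibroblast lists other than LYZ, CD68, FN1 and SPARC were chosen after their values were seen, and the part of such cells in the S100 results was not tested. The 8 endothelial markers summed to at most 5.22 FPKM in any library.

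**Figure D4:**
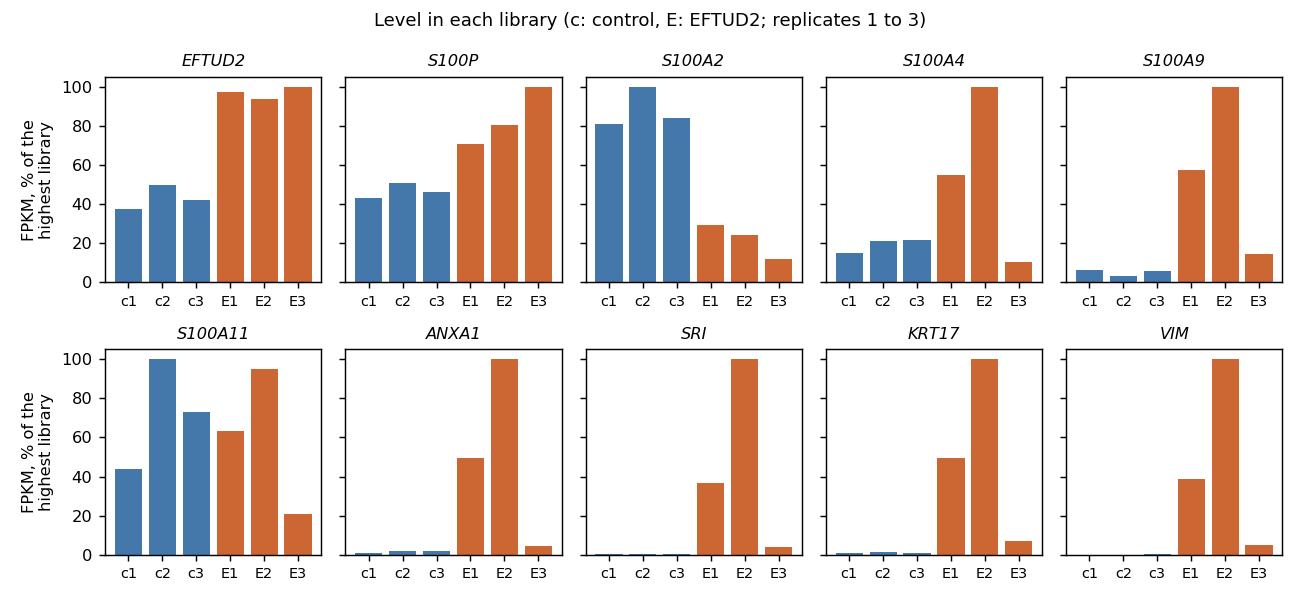
FPKM of each gene in the 6 libraries as percent of its highest library (bars from 0, controls c1 to c3 in blue, EFTUD2 libraries E1 to E3 in orange). EFTUD2 is at 94.0% to 100% in all 3 EFTUD2 libraries, whereas S100A4, S100A9, ANXA1, SRI, KRT17 and VIM peak in E2 and stand at 4.02% to 14.5% of it in E3.

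Genes of proteins that S100 members bind were tested in the same way. Of 32 partners and receptors listed, 29 were tested and 0 were called by limma, with 1 higher and 2 lower at an unadjusted p under 0.05, where 4.40% and 7.90% of all genes tested were, and a median log2 fold change of -0.07. The groups of 7 did not overlap, 2 higher and 5 lower, where 27.3% of all genes tested did not. The largest difference in size was that of annexin A1 (ANXA1), which is bound by S100A11 and limits phospholipase activity. It measured 0.16, 0.33 and 0.34 FPKM across the control libraries against 9.68, 19.5 and 0.90 FPKM across EFTUD2 replicates 1 to 3, the same order as S100A4 and S100A9 (log2 fold change 2.55, SE 0.79, limma adjusted p = 0.40). Without EFTUD2 replicate 3 its log2 fold change was 3.54, with a limma adjusted p of 0.013.

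Annexin A2 (ANXA2), the partner of S100A10, averaged 52.7 ± 0.62 FPKM over the controls and 58.3 ± 8.98 FPKM over the EFTUD2 libraries (SD, n = 3 each). The ratio of S100A10 to ANXA2 was 1.54 ± 0.18 in the controls and 1.33 ± 0.24 in the EFTUD2 libraries, and the groups overlapped. AHNAK, the giant scaffold held by that complex, had a log2 fold change of -0.09. MYH9, the myosin bound by S100A4, stood at 103.3 ± 6.01 and 97.7 ± 5.79 FPKM (SD, n = 3 each). Of the partners of S100A6, the calcyclin-binding protein (CACYBP) had a log2 fold change of -0.27 and annexin A11 (ANXA11) of -0.16, both with overlapping groups. Ezrin (EZR), which S100P activates, was lower in every EFTUD2 library, with a mean of 39.7 ± 6.32 FPKM beside 53.5 ± 1.99 FPKM in the controls (SD, n = 3 each) and a difference of -0.43 on the log2 scale (SE 0.14, limma adjusted p = 0.40). The ratio of S100P to EZR was therefore 3.39 ± 0.22 in the controls and 6.54, 7.03 and 11.9 in EFTUD2 replicates 1 to 3. IQGAP1, a scaffold that S100P also binds, had a log2 fold change of -0.03.

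The other large differences among the partners were those of SUGT1, a co-chaperone bound by S100A6, with a log2 fold change of -0.59, the actin-capping subunit CAPZA1 with -0.30, the ion channel ASIC1 with 0.33 and the annexin ANXA6 with 0.22. All had an adjusted p of at least 0.40 from limma. Receptors for S100 proteins outside the cell overlapped between the groups. AGER, which encodes RAGE, stood at 1.31 ± 0.39 and 1.46 ± 0.38 FPKM, and BSG (basigin) at 272.5 ± 18.1 and 287.8 ± 15.3 FPKM (SD, n = 3 each).

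Of the other S100 genes, 8 were in the table and 3 could be tested. S100A1, a member best known from heart muscle, was nearly as abundant as S100P in the controls, at 168.3 ± 8.58 FPKM (SD, n = 3), and measured 145.8, 142.7 and 178.0 FPKM across the EFTUD2 replicates (log2 fold change -0.12, limma adjusted p = 0.64). S100A5 was at 0.28 FPKM or less in every library. S100A7, S100A8, S100B, S100G and S100Z reached at most 0.14 FPKM. The fused S100 proteins of the skin, filaggrin and its relatives, which lie in the same stretch of chromosome 1, were too low to be tested in all 7 cases and summed to at most 0.23 FPKM.

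Calcium sensors of other EF-hand families gave a background for the S100 genes. Of 34 in the table, 31 were tested and 0 were called by limma, with 2 higher and 1 lower at an unadjusted p under 0.05, where 4.40% and 7.90% of all genes tested were, and a median log2 fold change of -0.06. One of the 2 higher, SRI, passed the filter on low values only through the EFTUD2 libraries. CALM2 and CALM3, which encode calmodulin, had log2 fold changes of -0.08 and 0.13, and the groups of each overlapped. Sorcin (SRI), a regulator of calcium release channels, measured 0.01, 0.01 and 0.03 FPKM across the control libraries against 1.82, 4.97 and 0.20 FPKM across EFTUD2 replicates 1 to 3. Its EFTUD2 libraries stood in the order of S100A4, S100A9 and ANXA1. NUCB1 (0.44) and CALU (0.32), calcium binders of the secretory pathway, were higher and did not overlap, while VSNL1 (-0.46), CALB2 (-0.42) and CAPN1 (-0.35) had the lowest log2 fold changes and overlapped.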

How the data were processed

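RNA-Seq values of 6 Hep G2 libraries, 3 control and 3 EFTUD2, were grouped by their titles. The authors selected poly-A RNA, sequenced it on the BGISEQ-500 and deposited FPKM values per gene and library, rounded to 2 decimals. The submitters' processing notes name HISAT2, Bowtie2 and RSEM and the build hg38, without versions. Low values held no common step between libraries (the commonest ratio covered at most 2.00% of them), so depth is unknown and gives no interval. The 26 symbols shown as dates were replaced through gene numbers.

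Values as log2(FPKM + 1), with a mean of at least 0.1 FPKM, were compared by limma 3.58.1 (lmFit, eBayes with trend) in R 4.3.3 with Benjamini-Hochberg adjustment over 17222 genes, after the fit was tested on simulated data. Sequences and positions came from RefSeq and GENCODE 29, where all 10 members matched. Coding sequences were aligned with Biopython 1.88. The members and lists were chosen with earlier results of these data known. Named besides the members were EFTUD2, the other S100 genes above the filter, 13 fixed partners and sensors (1 is not reported here), the 3 largest increases and decreases of each list, the 5 genes most like S100P and S100A2, and the 2 most abundant genes of each marker list; other marker genes were chosen after their values were seen. Alternatives were other pseudocounts, filters, scalings, robust estimation, array weights, a replicate block and each library left out.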

Additional observations from a re-analysis of the deposited data

How the results depend on the processing

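With the values as deposited, 0 genes were called by limma, and at an unadjusted p under 0.05 there were 757 higher and 1361 lower, so that 35.7% were higher. This share was 57.0% with the median of ratios, 44.3% with quantile scaling and 29.8% with a common sum, and the median log2 fold change of all genes moved from -0.075 to between -0.105 and 0.002, by less than 0.1. Pseudocounts of 0.1 and 0.01, both filters, the 3 scalings, robust estimation and the replicate block called 0 genes and 0 members.

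With array weights, whose estimation did not converge, the fit rested mostly on control replicate 3 (weight 27.7) and EFTUD2 replicate 2 (2.30). The other weights were 0.95 and 1.81 for control replicates 1 and 2, and 0.035 and 0.262 for EFTUD2 replicates 1 and 3. In this fit 1246 of 17222 genes tested were called. From the lists they included 5 of the 10 members, 1 other S100 gene (S100A3), 2 partners (ANXA1 and SUGT1) and 2 EF-hand sensors (SRI and VSNL1). The log2 fold changes of those members were then -1.23 for S100A2, 1.84 for S100A4, 1.84 for S100A9, -0.45 for S100A16 and 0.82 for S100P, and that of EFTUD2 was 1.14. S100A11 turned to 0.15 and S100A14 to -0.0056. S100A10 turned to 0.033 with the median of ratios.

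Over the 6 fits that each left out 1 library, 0 to 167 genes, 0 to 3 members, 0 to 1 partners and 0 to 1 EF-hand sensors were called. Every call came without EFTUD2 replicate 3, where 167 of 17163 genes tested were called. Among them were EFTUD2 and, of the lists, S100A2, S100A4, S100A9, ANXA1 and SRI. Over these 6 fits, log2 fold changes ran from 1.07 to 1.26 for EFTUD2, -1.45 to -1.16 for S100A2, 0.32 to 1.92 for S100A4, 0.91 to 1.74 for S100A9, -0.90 to 0.18 for S100A11 and -0.013 to 0.41 for S100A14. The direction held in every setting for 7 members, all but S100A10, S100A11 and S100A14. With the smaller pseudocounts S100A9 reached 2.62 and 3.04 and S100A2 -1.97 and -2.08.

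The replicate numbers were not taken as pairs, since deviations of same-numbered libraries correlated at -0.30, 0.35 and -0.094. With them as a block, 0 genes and 0 members were called and no direction changed. Of 23524 genes, 1365 were at 0 in all libraries, and without read numbers a low value such as that of S100A9 in the controls has no counting error.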

Other observations

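The genes whose levels followed a member most closely over the 6 libraries are given as a description, without a test. All 6 points share the group difference and the libraries' scaling, and 12555 other genes averaging 1 FPKM or more were compared. For S100P, the most abundant member, the highest Pearson correlations of log2(FPKM + 1) were those of PDE11A, a phosphodiesterase (r = 0.99), a transcript model of the sequencing provider without a gene name (0.99), the methionine salvage enzyme APIP (0.99), the dimethylglycine dehydrogenase DMGDH (0.99) and NACA, a subunit of the nascent polypeptide complex (0.99). NACA measured 303.6, 338.3 and 322.8 FPKM across the control libraries against 370.6, 379.6 and 412.4 FPKM across EFTUD2 replicates 1 to 3, with EFTUD2 replicate 3 highest as for S100P.

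For S100A2, the member with the largest log2 fold change in size with all libraries at a pseudocount of 1, though not with smaller pseudocounts, with array weights or without EFTUD2 replicate 3, they were CDR2L (r = 0.996), another transcript model without a gene name (0.996), DFFA (0.99), an inhibitor of the caspase-activated nuclease, KRT19 (0.99), a keratin of simple epithelia, and VPS25 (0.99), an endosomal sorting subunit. KRT19 measured 314.1, 357.7 and 372.7 FPKM across the control libraries against 163.0, 153.5 and 102.5 FPKM across EFTUD2 replicates 1 to 3, with replicate 3 lowest as for S100A2.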
